A study of Mus musculus with 4 samples.

Results

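Cluster 15 is a group of 163 cells, of 14491 listed by the study's authors, that carry the cluster number 15 in the authors' table of CD45+ tumour cells. They came from mice of the inbred 129S6 strain, wild type and bearing transplanted tumours. Each animal had been given 200 µg of antibody into the peritoneum on days 3, 6 and 9. Live CD45+ cells were sorted from collagenase-digested tumours, and transcripts were counted per cell as UMIs (unique molecular identifiers, each standing for 1 captured molecule). There was 1 library per treatment. Cluster 15 held 9 cells of 3417 in the anti-PD-1 library (clone RMP1-14), 14 of 3336 in the anti-CTLA-4 library (clone 9D9), 14 of 3945 in the library of both antibodies together, called the combination here, and 126 of 3793 in the control library (rat IgG2a). The sources used here do not say how many mice stand behind a library. With 1 library per treatment no difference between treatments could be tested, and every interval below is a 95% interval that covers counting error only. The cluster was compared with the non-cycling macrophage clusters 1, 2, 4 and 7. Cell cycle genes helped to make the clusters, so their levels in cluster 15 are a description.

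The table gives cluster 15 no name, and its cells were checked against the markers of cycling cells and of macrophages. All 4 cycling markers were high in the cluster and all 12 macrophage markers were detected there. In the CTLA-4 antibody and combination libraries, however, most of its cells did not match macrophages once cell cycle genes were set aside. Of 163 cells, 120 were nearest a macrophage or monocyte cluster, 29 were nearest a dendritic cell-like cluster and 14 were nearest other clusters. The name cycling macrophages therefore fits the 109 such cells among 126 in the control library, and only 11 of 37 in the 3 treated libraries, so the cells are called cluster 15 throughout.

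A dividing cell first copies its DNA in S phase and then, in G2 and mitosis (G2/M), condenses, aligns and separates its chromosomes. Each step has its own transcripts: helicase loaders, polymerases and nucleotide enzymes come first, and cyclins, kinesins and the anaphase machinery follow. PD-1 and CTLA-4, which the antibodies block, restrain T cells and are not part of that machinery. Macrophages of many tissues keep up their numbers by dividing in place, driven mainly by the receptor Csf1r, while others arise from blood monocytes. In tumours both sources contribute. Conventional dendritic cells, which present antigen to T cells, also divide in tissue and depend on the receptor Flt3.

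Promoters of the late cell cycle genes share short motifs, and those of the 4 cycling markers are printed because these genes were high together in cluster 15. Cdc6, a loader of the replicative helicase, is added to show an S phase promoter. Each run is 300 bases, 250 before and 50 after the first listed start of the gene in RefSeq (build GRCm38.p6), 5′ to 3′ on the gene's strand. The windows are chr13:100786437-100786736 on the minus strand for Ccnb1, chr2:164769679-164769978 on the plus strand for Ube2c, chr11:117848987-117849286 on the plus strand for Birc5, chr7:135716330-135716629 on the minus strand for Mki67 and chr11:98907901-98908200 on the plus strand for Cdc6. Capitals mark the cell cycle homology region (CHR; TTTGAA or TTTAAA), the CCAAT box (CCAAT) and E2F motifs (TTTGGCGC, TTTCCCGC, TTTCGCGC or TTTGCCGC), searched on both strands, and neighbouring matches may overlap.
Ccnb1: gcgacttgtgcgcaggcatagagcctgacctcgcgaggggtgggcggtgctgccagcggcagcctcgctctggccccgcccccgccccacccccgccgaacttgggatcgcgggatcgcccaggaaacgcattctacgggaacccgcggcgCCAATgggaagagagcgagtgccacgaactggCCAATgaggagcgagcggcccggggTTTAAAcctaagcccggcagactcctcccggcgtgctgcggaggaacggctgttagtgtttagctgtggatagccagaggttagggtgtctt
Ube2c: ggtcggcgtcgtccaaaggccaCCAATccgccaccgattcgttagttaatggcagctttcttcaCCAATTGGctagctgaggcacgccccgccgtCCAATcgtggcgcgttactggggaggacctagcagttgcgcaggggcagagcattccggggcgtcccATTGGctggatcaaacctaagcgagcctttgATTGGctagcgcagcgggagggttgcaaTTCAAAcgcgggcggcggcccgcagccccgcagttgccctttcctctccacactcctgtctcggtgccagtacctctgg
Birc5: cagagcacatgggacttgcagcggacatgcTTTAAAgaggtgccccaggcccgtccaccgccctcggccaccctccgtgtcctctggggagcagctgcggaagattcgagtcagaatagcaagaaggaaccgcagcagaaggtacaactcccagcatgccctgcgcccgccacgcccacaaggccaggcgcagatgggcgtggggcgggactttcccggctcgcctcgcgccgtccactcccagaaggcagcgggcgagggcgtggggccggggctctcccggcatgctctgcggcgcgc
Mki67: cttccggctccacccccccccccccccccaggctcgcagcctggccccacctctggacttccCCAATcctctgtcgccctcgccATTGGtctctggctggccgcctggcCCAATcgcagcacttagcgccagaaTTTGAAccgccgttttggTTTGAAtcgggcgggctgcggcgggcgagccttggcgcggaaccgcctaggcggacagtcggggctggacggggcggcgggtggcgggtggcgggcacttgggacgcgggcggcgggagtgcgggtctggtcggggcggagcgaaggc
Cdc6: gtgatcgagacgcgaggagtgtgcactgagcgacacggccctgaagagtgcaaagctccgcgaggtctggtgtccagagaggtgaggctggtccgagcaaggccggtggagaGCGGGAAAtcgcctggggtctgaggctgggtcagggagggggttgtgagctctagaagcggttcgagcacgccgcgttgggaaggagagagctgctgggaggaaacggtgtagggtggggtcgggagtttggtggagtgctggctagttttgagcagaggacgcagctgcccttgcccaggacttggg

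Ccnb1, the cyclin that drives entry into mitosis, had 1 CHR and 2 CCAAT boxes. Ube2c, which with the anaphase-promoting complex marks cyclins for destruction, had 1 CHR and 6 CCAAT boxes. Mki67, the Ki-67 protein that coats mitotic chromosomes, had 2 CHRs and 3 CCAAT boxes. Birc5, or survivin, a subunit of the chromosomal passenger complex, had 1 CHR letter match far upstream, with its first base at -220 from the start, and no CCAAT box. Cdc6 had 1 E2F motif and neither of the others. Among the G2/M score list of 54 genes, 46 had a window, and a CHR lay in 36 of these (78.3%), against 7 of 31 windows (22.6%) for the 43 genes of the S phase list and 27.8% of all 27025 promoters. A CCAAT box was found in 35 of the 46 G2/M windows (76.1%), 22 of the 31 S phase windows (71.0%) and 37.9% of all promoters. E2F motifs were found in 2 of the 46 G2/M windows (4.35%), 11 of the 31 S phase windows (35.5%) and 2.32% of all promoters. These are matches of letters and not measured sites, and the lists were drawn up from cell cycle knowledge rather than from promoter sequence.

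To see what the cells were apart from dividing, each cluster 15 cell was set against the summed profiles of the 18 other clusters by multinomial likelihood. All listed cell cycle genes were left out, as was every gene at least 1.5-fold higher in cluster 9 (cycling T cells) than in the other T cell clusters. The lineage markers and the C1q gene list were left out too, so that they could be looked at afterwards. The macrophage and monocyte clusters 1, 2, 4, 7 and 0 were nearest for 6 of 9 cells in the PD-1 antibody library, 3 of 14 in the CTLA-4 antibody library, 2 of 14 in the combination library and 109 of 126 in the control library. The 3 treated libraries together gave 11 of 37 cells (29.7%; 15.9 to 47.0%), against 86.5% in control (79.3 to 91.9%). Cluster 11, which carries markers of conventional dendritic cells, was nearest for 1, 10 and 7 cells of the PD-1 antibody, CTLA-4 antibody and combination libraries, against 11 control cells. That was 18 of 37 treated cells (48.6%; 31.9 to 65.6%), against 8.73% of control cells (4.44 to 15.1%). Pooled over the 3 treatments, the treated and control intervals do not overlap for either set. With PD-1 antibody alone they do, at 66.7% macrophage-nearest (29.9 to 92.5%) and 11.1% cluster-11-nearest (0.281 to 48.2%). This 18-cluster call was added after the data were seen.

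**Figure D1:**
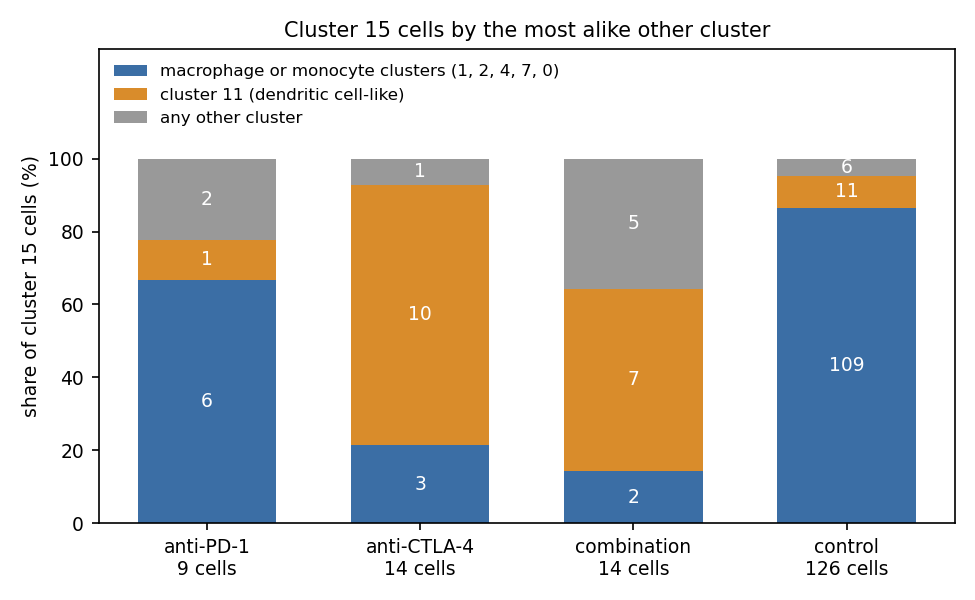
Share of the cluster 15 cells of each library by the kind of cluster they were nearest to once cell cycle genes and lineage markers were left out. Cell numbers are printed on the bars. Of the control cells 109 of 126 were nearest a macrophage or monocyte cluster, against 11 of 37 cells in the 3 treated libraries together.

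The call was checked on cells whose cluster was known, each with its own counts taken out of the profile. Cells of clusters 1, 2, 4, 7 and 0 were returned to this set of 5 clusters in 98.1, 98.3, 99.5, 98.7 and 96.7% of cases. Cluster 11 cells were returned to cluster 11 in 76.2% of cases. Only 1.17% of cluster 1 cells were placed nearest cluster 11. Cycling T cells of cluster 9, with their own cluster withheld, went to a T cell cluster in 83.1% of cases. The genes left out were picked by comparing cluster 9 with the other T cell clusters. This check therefore cannot show whether cycling macrophages or dendritic cells stay with their lineage. With every cell used at full depth, 3 other ways of making the call and the one given above placed 6 or 7 of 9, 3 or 4 of 14 and 2 or 3 of 14 treated cells and 106 to 114 of 126 control cells nearest macrophages. In cells thinned to 2000 UMIs the counts were 6 of 9, 3 of 13 and 1 of 11 treated cells, against 103 of 115 control cells. With the 3% of cells of highest doublet score left out of each library, 3 of 4, 2 of 11 and 2 of 12 treated cells were nearest macrophages, against 108 of 124 control cells. Doublet scores did differ: 5 of 9, 3 of 14 and 2 of 14 treated cells were in the highest 3%, against 2 of 126 control cells. Among the treated cells not nearest a macrophage cluster, 6 of 26 were in the highest 3%. The part of doublets in the difference was not tested beyond this.

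The markers that had been left out of the call followed it. C1qa, a complement subunit made by tissue macrophages, was seen in 11 of the 29 cluster-11-nearest cells (37.9%), against 119 of the 120 macrophage-nearest cells (99.2%). Its level was 168 CPM (each gene's UMIs scaled to a common total) in the cluster-11-nearest cells, against 5524 CPM in the macrophage-nearest cells. Cluster 9 T cells, which should lack C1qa, showed it in 18.8% of cells at 99.0 CPM. Csf1r, the macrophage growth factor receptor, was seen in 8 of 29 cluster-11-nearest cells, against 105 of 120. Lyz2 and Aif1 were lower too, but were seen in most cluster-11-nearest cells. Lyz2, the lysozyme of myeloid cells, was seen in 25 of 29 cluster-11-nearest cells (2442 CPM), against 119 of 120 (8543 CPM). Aif1, a calcium-binding protein of macrophages, was seen in 21 of 29, against 119 of 120. Cluster 9 showed Lyz2 in 71.2% of cells at 585 CPM and Aif1 in 13.4% of cells. The 12 macrophage markers summed to 4040 CPM in cluster-11-nearest cells, against 28950 CPM in macrophage-nearest cells, 6259 CPM in cluster 11 and 1149 CPM in cluster 9.

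Genes of dendritic cells ran the other way. Xcr1, a chemokine receptor of cross-presenting dendritic cells, was seen in 10 of 29 cluster-11-nearest cells (34.5%; 197 CPM) and in 0 of 120 macrophage-nearest cells. Counting 3 cells as what a count of 0 allows, up to 2.5% of macrophage-nearest cells could have an Xcr1 UMI (exact upper limit 3.03%), which says nothing of cells that express it without a UMI. Clec9a, a receptor for dead cells on the same dendritic cells, was seen in 6 of 29, against 0 of 120. Flt3 was seen in 8 of 29, against 3 of 120. Batf3, a transcription factor needed to form those cells, was seen in 20 of 29, against 17 of 120. All 4 genes thus lay with the cluster-11-nearest cells. Cluster 11 itself had Xcr1 in 15.2% and C1qa in 31.2% of its 349 cells, while cluster 1 had Xcr1 in 0.39% and C1qa in 95.2% of its 2053 cells. Median depth was 5674 UMIs in the cluster-11-nearest cells, against 6123.5 UMIs in the macrophage-nearest cells. Both sets were rich in MHC class II transcripts, with 70895 CPM and 79039 CPM over the list of 10 genes, and both carried the cycling markers, with 2072 CPM and 1402 CPM over the 4 genes.

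**Figure D2:**
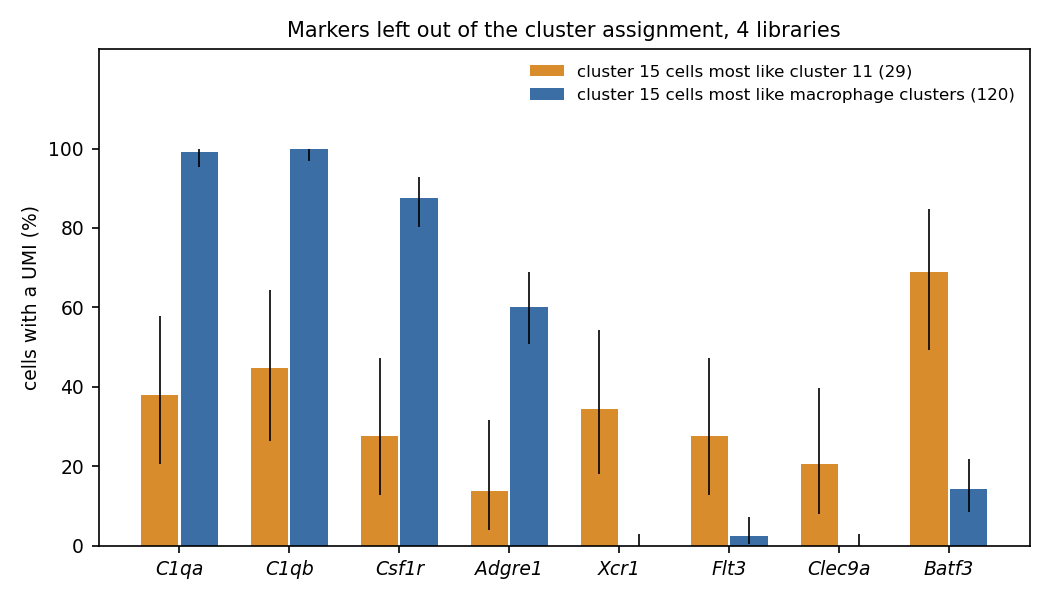
Percent of cells with at least 1 UMI of each marker left out of the lineage call, in cluster-11-nearest and macrophage-nearest cells of cluster 15, with exact 95% intervals. C1qa was seen in 37.9% and 99.2% of these cells, and Xcr1 in 34.5% and 0%.

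The remaining 14 cells, 8 treated and 6 control, had a median depth of 3438.5 UMIs. Of these, 8 were nearest cluster 13, whose cells carry T cell and macrophage markers together. C1qa was seen in 9 of the 14, and no UMI of the dendritic cell list was seen. No name is given to them. Over all cluster 15 cells, dendritic cell markers summed to 76.7, 445 and 362 CPM in the PD-1 antibody, CTLA-4 antibody and combination libraries, against 90 CPM in control.

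Cluster 15 made up a smaller share of the macrophage clusters in each treated library than in control. Over clusters 1, 2, 4, 7 and 15 it was 9 of 1256 cells with PD-1 antibody (0.717%; 0.328 to 1.36%), 14 of 1411 with CTLA-4 antibody (0.992%; 0.543 to 1.66%) and 14 of 1868 with the combination (0.749%; 0.410 to 1.25%), against 126 of 1521 in control (8.28%; 6.95 to 9.78%). The 3 treated intervals overlap each other and lie below the control interval. On the log2 scale the ratio to control was -3.53, -3.06 and -3.47. Macrophage-nearest cells alone were 6 of 1253 (0.479%), 3 of 1400 (0.214%) and 2 of 1856 cells (0.108%) in the treated libraries, against 109 of 1504 in control (7.25%). The ratio was then -3.92, -5.08 and -6.07.

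The makeup of the macrophage clusters differed between libraries too, so cluster 15 was also set against cluster 1. With 18 clusters offered, cluster 1 was nearest for 106 of 126 control cells but only 10 of 37 treated cells. The treated shares on this base thus mostly count cells nearest other clusters. Cluster 15 was 2.85% of clusters 1 and 15 together with PD-1 antibody (9 of 316 cells) and 3.25% with CTLA-4 antibody (14 of 431). It was 5.22% with the combination (14 of 268), against 10.5% in control (126 of 1201). On that base the log2 ratios were smaller, at -1.88, -1.69 and -1.01, with the combination interval running from -1.92 to -0.21. Cluster-11-nearest cells were also set against their own nearest cluster. They were 1.19, 10.99 and 6.36% of cluster 11 plus themselves in the PD-1 antibody, CTLA-4 antibody and combination libraries, against 11.8% in control. The pooled treated share was 6.32% (3.79 to 9.80%; 18 of 285), against the control interval of 6.05 to 20.2% (11 of 93), and these overlap. The share was below that of control in each treated library, by little with CTLA-4 antibody.

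Cycling cells were also counted without the cluster number. Each cell with at least 2000 UMIs was thinned to 2000, and it counted as cycling with 10 or more UMIs from the S phase and G2/M lists together. By this rule 8 of 9 PD-1 antibody, 13 of 13 CTLA-4 antibody, 11 of 11 combination and 110 of 115 control cells of cluster 15 were cycling. In clusters 1, 2, 4 and 7 the cycling cells were 10 of 1007 (0.993%), 7 of 1099 (0.637%) and 12 of 1420 (0.845%) in the treated libraries, against 48 of 1173 in control (4.09%; 3.03 to 5.39%). The makeup of these clusters differed, since 916 of the 1173 control cells were of cluster 1. Within cluster 1 the share was 2.06% (0.671 to 4.74%), 0.593% (0.0720 to 2.13%) and 2.30% (0.630 to 5.78%) with PD-1 antibody, CTLA-4 antibody and the combination, against 4.37% in control (3.14 to 5.90%), and the CTLA-4 antibody interval alone lay below that of control. At 20 or more UMIs the shares over the 4 clusters were 0.397%, 0.364% and 0.211%, against 0.597% in control (0.240 to 1.23%), with intervals that overlap. Over clusters 1, 2, 4, 7 and 15 together the share was 1.77%, 1.80% and 1.61% with PD-1 antibody, CTLA-4 antibody and the combination, against 12.3% in control (10.5 to 14.2%). Cluster 15 held 8 of 18, 13 of 20 and 11 of 23 of these cycling cells in the treated libraries, against 110 of 158 in control (69.6%). A control cell of cluster 15 had a median of 21 list UMIs per 2000, with a range of 7 to 47, against a median of 3 in cluster 1. A control cell of cluster 9 had a median of 36.

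In the control library cluster 15 was compared with cluster 1 gene by gene, from 755816 and 4863511 UMIs. Among 9007 genes with at least 20 UMIs over both clusters, 1098 were 2-fold or more higher in cluster 15, which is 12.2% of those tested, and 502 were 2-fold or more lower, which is 5.57%. Against that background, 144 of 161 tested genes of the cell cycle role lists were 2-fold or more higher. The lists had 182 measured members, and 157 of the 161 tested were higher in cluster 15 to some degree. Their median log2 ratio of CPM was 3.11, against 0.12 over all tested genes. In the treated libraries the median was 2.39 over 62 genes with PD-1 antibody, 2.40 over 81 genes with CTLA-4 antibody and 2.98 over 57 genes with the combination. Median depth per cell was 6987, 5497.5, 5579 and 5837 UMIs in cluster 15 and 4002, 3957, 3315.5 and 4428 UMIs in cluster 1, in the order PD-1 antibody, CTLA-4 antibody, combination and control.

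**Figure D3:**
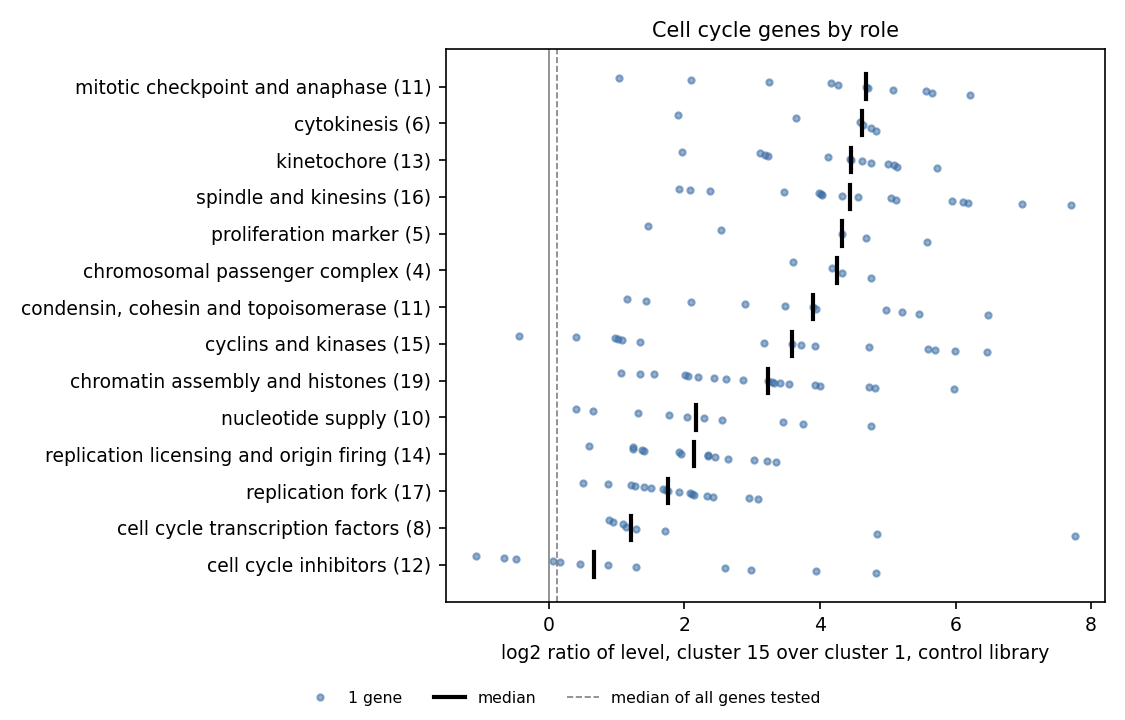
Log2 ratio of CPM in cluster 15 over cluster 1 of the control library for each tested member of the cell cycle lists, 1 point per gene, with the list medians. Lists of the mitotic machinery have medians of 3.90 to 4.68, and the replication lists 1.75 to 2.17.

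The 4 cycling markers were compared first. Ccnb1 was at 46.0, 572 and 64.7 CPM in cluster 15 of the PD-1 antibody, CTLA-4 antibody and combination libraries and at 165 CPM in control, against 2.36, 0.614, 1.21 and 3.08 CPM in cluster 1 of the same libraries. Its control log2 ratio was 5.70 (4.97 to 6.62), with a UMI in 42 of 126 cells, against 13 of 1075. Ube2c was at 153, 280 and 763 CPM in the treated libraries and 451 CPM in control in cluster 15, and at 0 to 9.46 CPM in cluster 1 (5.56 in control; 5.13 to 6.05). The groups do not overlap for either gene. Birc5 was at 491, 826 and 646.5 CPM in the treated libraries and 654 CPM in control in cluster 15, against 1.21 to 24.1 CPM in cluster 1. Mki67 was at 230, 165 and 259 CPM in the treated libraries and 224 CPM in control in cluster 15, against 4.86 to 14.7 CPM in cluster 1. These levels were also well apart, and in cluster 9 of the control library Mki67 was at 234 CPM, next to that of cluster 15.

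In the control library genes that prepare and carry out replication were higher, but less so than the mitotic genes. All 14 tested genes of licensing and origin firing were higher, with a median log2 ratio of 2.15. Cdc45, a part of the replicative helicase, had a log2 ratio of 3.35 (2.01 to 4.86), and Dbf4, the activator of the kinase that fires origins, 3.22 (2.48 to 4.01). Cdc6, whose promoter is printed above, was at 3.03, but 22 of its 42 UMIs came from 1 cell, and without that cell the ratio was 2.02. All 17 replication fork genes were higher, with a median of 1.75; Prim1, the catalytic subunit of primase, was at 3.08 (2.34 to 3.85). All 10 nucleotide supply genes were higher, with a median of 2.17. Among these Rrm2, a subunit of ribonucleotide reductase, was at 229 CPM in cluster 15, against 8.43 CPM in cluster 1 (4.75; 4.26 to 5.29). Tk1, thymidine kinase, was at 239 CPM, against 17.7 CPM.

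Chromatin genes were higher in all 19 cases tested, with a median of 3.24. Hist1h2ap, a replication-dependent histone gene, was at 1077 CPM in cluster 15, against 17.1 CPM in cluster 1 (5.97; 5.65 to 6.32). Histone genes of this kind are nearly identical to each other, so their counts could be split between copies. The PCNA-associated factor gene, listed as 2810417H13Rik, was at 799 CPM, against 16.7 CPM (5.58; 5.25 to 5.94). It was seen in 111 of 126 cells of cluster 15, against 63 of 1075 cells of cluster 1.

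In the control library the mitotic lists had the larger ratios. All 11 tested genes of the checkpoint and anaphase were higher with a median of 4.68, all 13 of the kinetochore with 4.46, all 16 of the spindle with 4.44, all 4 of the chromosomal passenger complex with 4.25, all 11 of condensin, cohesin and topoisomerase with 3.90 and all 6 of cytokinesis with 4.61. Nusap1, which bundles spindle microtubules, had 145 UMIs in the 126 cells of cluster 15 and 4 UMIs in the 1075 cells of cluster 1, a log2 ratio of 7.70 (6.48 to 9.76). Top2a, the enzyme that untangles sister chromatids, was at 458 CPM in cluster 15, against 10.3 CPM in cluster 1 (5.46; 5.05 to 5.93), and was seen in 96 of 126 cells, against 46 of 1075. Plk1, a kinase of mitotic entry and exit, was at 52.9 CPM, against 0.617 CPM (6.22). Prc1, which organises the midzone of the spindle, was at 156 CPM, against 2.06 CPM (6.18). Aurkb, the kinase of the passenger complex, was at 120 CPM, against 5.96 CPM (4.32; 3.72 to 4.99). Foxm1, a transcription factor of G2 genes, was at 66.2 CPM, against 0.206 CPM, but 34 of its 50 UMIs lay in 1 cell. The order of the lists was not the same in every treated library, where few members were tested. With PD-1 antibody the median was 4.03 for 6 nucleotide supply genes and 2.83 for 4 licensing genes, above 2.17 for 3 checkpoint genes and 2.04 for 4 spindle genes. With CTLA-4 antibody it was 3.72 for 8 nucleotide supply genes, above 3.11 for 4 checkpoint genes. With the combination it was 4.06 for 4 checkpoint genes, above 2.64 for 6 nucleotide supply genes.

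Of the 15 cyclins and kinases 14 were higher, with a median of 3.59 and a lowest ratio of -0.45. Ccne2, a cyclin of the start of S phase, was at 45.0 CPM in cluster 15, against 0.617 CPM in cluster 1 (5.99). The D cyclins, which couple growth signals to the cycle, had ratios below the list median. Ccnd1 was at 46.0, 76.3 and 12.9 CPM in cluster 15 of the PD-1 antibody, CTLA-4 antibody and combination libraries and 250 CPM in control, against 40.0, 15.4, 8.50 and 98.7 CPM in cluster 1. Its control log2 ratio was 1.34 (1.09 to 1.59). The treated values of cluster 15 rest on 3, 6 and 1 UMIs, and in both clusters every treated library was below control. Ccnd3 was at 184, 216 and 207 CPM in cluster 15 of the treated libraries and 139 CPM in control, against 54.6 to 71.4 CPM in cluster 1, with a control ratio of 1.08 (0.75 to 1.40). For Ccnd2 the control interval included 0 (0.40; -0.08 to 0.83). In the T cells the pattern was another: Ccnd1 had 8.82 CPM in cycling cluster 9, against 12.1 CPM in the other T cell clusters, and Ccnd3 had 207 CPM, against 203 CPM.

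Inhibitors of the cycle were mixed in the control library. Of 12 tested, 9 were higher with a median of 0.67, and 5 intervals lay above 0 and 2 below. Over all 9007 tested genes 57.7% were higher, 19.4% had an interval above 0 and 8.89% one below. Cdkn2c, an inhibitor of the D cyclin kinases, was at 171 CPM in cluster 15, against 11.1 CPM in cluster 1 (3.93), and 3.28 without the 1 cell that held 50 of its 129 UMIs. Cdkn2d, of the same family, had a log2 ratio of 2.98 (2.54 to 3.44). Cdkn3, a phosphatase of the cyclin-dependent kinases, was at 4.83 (3.77 to 6.21). The general inhibitors Cdkn1a (0.06; -0.16 to 0.28) and Cdkn1b (0.16; -0.81 to 0.95) had intervals that included 0. Btg2, an antiproliferative immediate early gene, was at 126 CPM in cluster 15, against 266 CPM in cluster 1 (-1.07; -1.40 to -0.78).

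Most cells of cluster 15 were called in G2/M by the phase scores. Phases were scored in cells thinned to 2000 UMIs, from the 43 S phase and 54 G2/M genes. G2/M was called in 6 of 9 PD-1 antibody, 10 of 13 CTLA-4 antibody and 11 of 11 combination cells, against 78 of 115 control cells (67.8%; 58.5 to 76.2%). S phase was called in 3, 3 and 0 treated cells, against 35 control cells (30.4%), and G1 in 2 cells, both of control. The treated libraries hold too few cells to tell their phases from those of control. Over all libraries 105 of 148 cells (70.9%; 62.9 to 78.1%) were in G2/M, against 336 of 563 cycling T cells (59.7%; 55.5 to 63.8%); the intervals overlap. In cluster 1 of the control library 857 of 916 cells were called G1. The 2 scores differed by under 0.1 in 32 of the 148 cells, and such calls are close. With phase taken from the larger of the S phase and G2/M list sums, 53.9% of control cells (44.4 to 63.2%) were in G2/M. By that rule 51.9% of control cycling T cells (43.1 to 60.6%) were in G2/M, and the control intervals overlap. Over all libraries it was 58.1% of cluster 15 cells (49.7 to 66.2%), against 45.3% of cycling T cells (41.1 to 49.5%). Those intervals lie just apart. Cluster-11-nearest cells were in G2/M in 21 of 26 cases, against 78 of 113 macrophage-nearest cells.

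**Figure D4:**
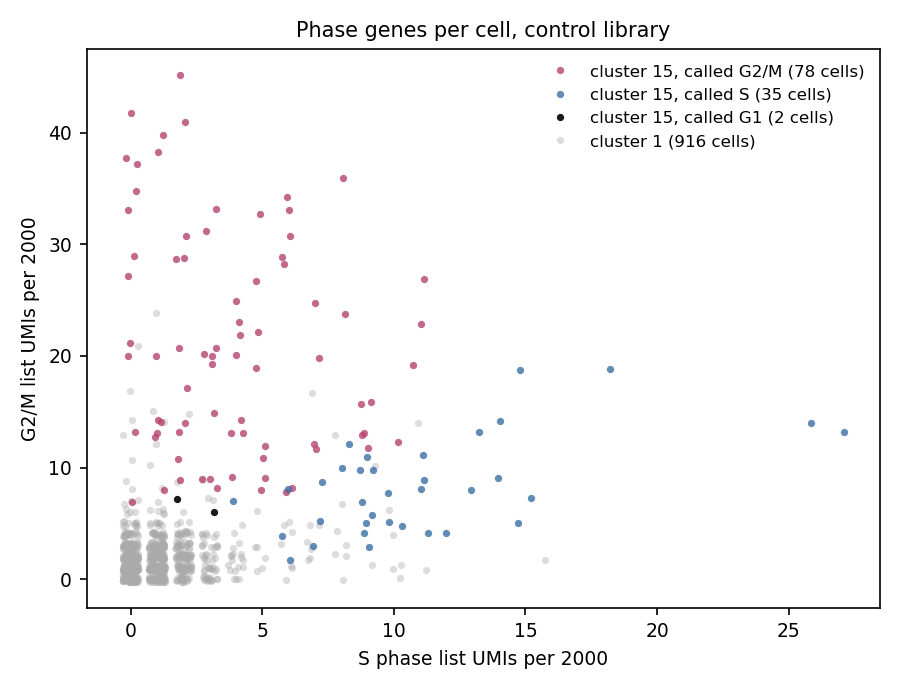
UMIs from the G2/M list against UMIs from the S phase list in each thinned control cell of cluster 15, coloured by the phase called, and of cluster 1 in grey, with points shifted slightly so that they do not hide each other. Control cells of cluster 15 span 2 to 45 G2/M UMIs and 0 to 27 S phase UMIs of 2000.

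Cell cycle genes that the score lists do not hold were compared between the phases called. Of 87 such genes in the control library, 31 had an interval above 0 in the 78 G2/M cells over the 35 S phase cells, and 16 an interval below 0. Over all 4163 genes tested between these cells, 12.3% had an interval above 0 and 10.2% one below. The median log2 ratio was 0.38 over the 87 genes, against 0.05 over all. Ccnb1 was at 223 CPM in G2/M cells, against 29.6 CPM in S phase cells (2.80; 1.75 to 4.39). Pttg1, the securin that holds back sister separation until anaphase, was at 335 CPM, against 74.0 CPM (2.13; 1.42 to 3.05). Racgap1, a part of the centralspindlin complex of cytokinesis, was at 112 CPM, against 29.6 CPM. In contrast Tk1 was at 179 CPM in G2/M cells, against 419 CPM in S phase cells (-1.23; -1.67 to -0.79). Mcm7, a helicase subunit, was at 43.7 CPM, against 143 CPM (-1.70). These 5 genes were chosen after their values were seen, so their split by phase does not stand for the 87. Dbf4 (1.48; 0.13 to 3.59) and Hist1h2ap (0.71; 0.45 to 0.98), though tied to replication, were higher in G2/M cells. Ccnd1 was at 236 CPM in G2/M cells, against 291 CPM in S phase cells, with an interval that included 0. G2/M cells were also deeper, with a median of 6917.5 UMIs, against 5642 UMIs. These genes share cells and co-vary with the scoring genes, so this is a description of the calls.

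Apart from cell cycle genes, the control cells of cluster 15 were closest to cluster 1 of the 4 macrophage clusters. When only clusters 1, 2, 4 and 7 of a cell's own library were offered, cluster 1 was nearest for 8 of 9 PD-1 antibody, 10 of 14 CTLA-4 antibody and 14 of 14 combination cells, against 122 of 126 control cells (96.8%; 92.1 to 99.1%). The remaining 4 control cells went to cluster 2. Cells of control clusters 1, 2, 4 and 7 were themselves returned to their own cluster in 1010 of 1075, 90 of 159, 24 of 55 and 79 of 106 cases. This choice between 4 clusters hides other lineages: 26 of the 29 cluster-11-nearest cells also went to cluster 1. Of the macrophage-nearest cells, 11 of 11 treated and 105 of 109 control cells went to cluster 1. Across 7814 genes outside the cell cycle set, the control profile of cluster 15 had a Pearson correlation of log2(CPM + 10) of 0.963 with cluster 1, 0.926 with cluster 2, 0.897 with cluster 4 and 0.887 with cluster 7, as a description across genes, which are not independent replicates. Clusters 2, 4 and 7 held only 159, 55 and 106 control cells, and the part of this in the correlations was not tested.

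In the control library the leading genes of the 4 clusters also set cluster 15 near cluster 1. The 5 genes that lead cluster 1 summed to 1753 CPM in cluster 15, against 1267, 810, 242 and 318 CPM in clusters 1, 2, 4 and 7. Among them Cd72, a receptor of the lectin type, was at 624 CPM in cluster 15, against 450 CPM in cluster 1 and 226, 67.9 and 124 CPM in clusters 2, 4 and 7. Cd81, a tetraspanin, was at 656 CPM, against 432, 392, 123 and 105 CPM. In control Cd81 thus hardly separated cluster 1 from cluster 2. Nor did Igfbp4, another of the 5, which was at 118 CPM in both. Genes of cluster 2 were low: Pf4, a platelet and macrophage chemokine, was at 389 CPM in cluster 15 and 605 CPM in cluster 1, against 4665 CPM in cluster 2. Chil1, a chitinase-like protein that leads cluster 4, was at 11.9 CPM in cluster 15 and 59.0 CPM in cluster 1, against 908 CPM in cluster 4. Ifit1, an interferon-induced gene that leads cluster 7, was at 6.62 CPM in cluster 15 and 12.5 CPM in cluster 1, against 630 CPM in cluster 7. The genes that lead clusters 2, 4 and 7 thus summed to 2761, 42.3 and 49.0 CPM in control cells of cluster 15, against 5738, 107 and 45.2 CPM in cluster 1. In the combination library the genes of cluster 4 summed to 1267 CPM in cluster 15, against 233 CPM in cluster 1.

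Markers of most other cells were low in the control cells of cluster 15. T cell markers summed to 58.2 CPM in cluster 15, against 61.9 CPM in cluster 1. Neutrophil markers summed to 118 CPM, against 208 CPM, B cell markers to 5.29 CPM, against 10.5 CPM, and all 5 erythroid markers were at 0. Some lists were above cluster 1. Conventional dendritic cell markers were at 90 CPM in cluster 15, against 38 CPM in cluster 1, and NK cell markers at 46.3 CPM, against 39.5 CPM. Plasmacytoid dendritic cell markers were at 467 CPM, against 312 CPM, with Siglech, Ccr9 and Klk1 at 0 in cluster 15. In the treated libraries B cell markers summed to 307 CPM in the PD-1 antibody cells of cluster 15, against 7.85 CPM in cluster 1, and neutrophil markers to 763 CPM in the combination cells, against 121 CPM. Of the 9 PD-1 antibody cells 5 were among the highest doublet scores, and the part of doublets in these sums was not tested.

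Macrophage genes were mostly a little lower in cluster 15 than in cluster 1 of the control library. C1q and resident genes were higher in 3 of 18 tested, against 57.7% of all genes, with a median log2 ratio of -0.46, against 0.12 over all genes and 0.04 over the 7544 tested genes outside the cell cycle set. Among macrophage-nearest control cells alone the median was -0.34. C1qa was at 4247, 1259 and 983 CPM in cluster 15 of the PD-1 antibody, CTLA-4 antibody and combination libraries and 4931 CPM in control, against 5287, 5857, 4795 and 5558 CPM in cluster 1. Its control ratio was -0.17 (-0.22 to -0.12), and -0.01 (-0.06 to 0.04) among macrophage-nearest control cells, where the interval included 0. Apoe, a lipid carrier of mature macrophages, was lower by far more. It was at 276, 102 and 246 CPM in cluster 15 of the treated libraries and 250 CPM in control, against 2412, 999, 2821 and 1116 CPM in cluster 1. The control ratio was -2.15 (-2.38 to -1.95), and -1.97 among macrophage-nearest cells, with a UMI in 34 of 126 cells, against 407 of 1075. In all 4 libraries Apoe was lower in cluster 15, though only 11 of its 37 treated cells were macrophage-nearest.

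**Figure D5:**
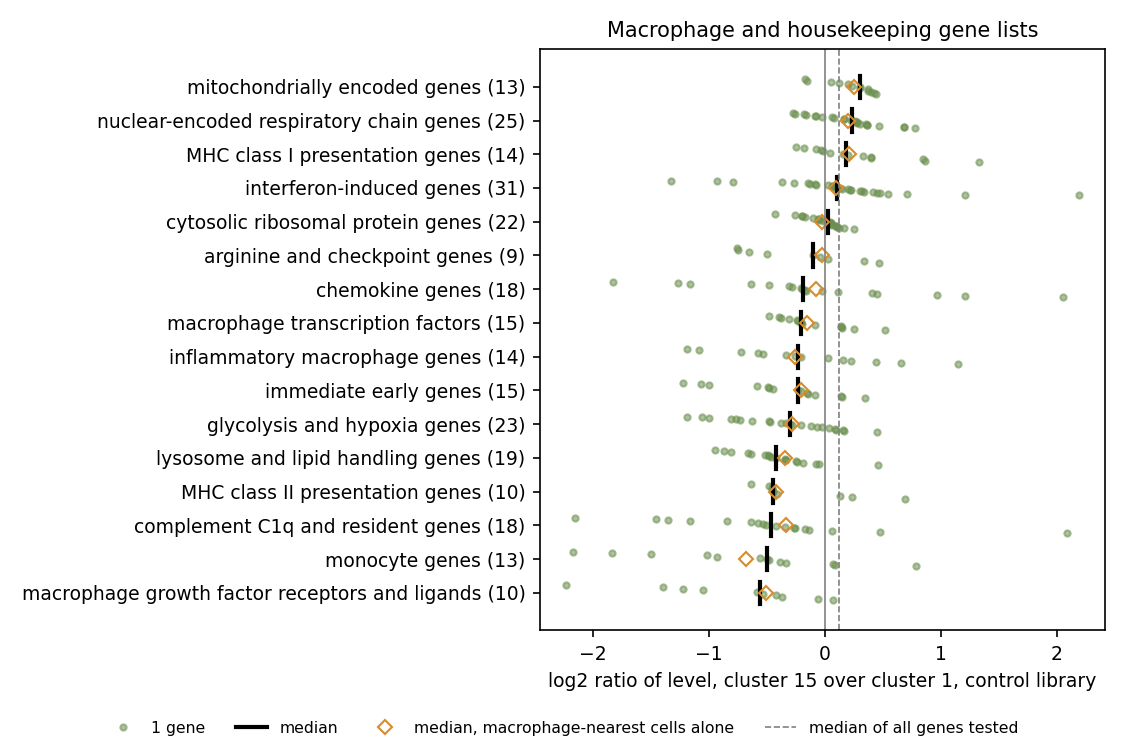
Log2 ratio of CPM in cluster 15 over cluster 1 of the control library for each tested member of the macrophage lists, 1 point per gene, with the list medians as black bars, those of macrophage-nearest cells alone as diamonds and the median of all genes tested as a dashed line. Medians run from -0.56 for growth factor receptors and ligands to 0.30 for mitochondrially encoded genes.

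Growth factor receptors and ligands were higher in 1 of 10 tested in the control library, with a median of -0.56. Csf1r itself was at 261, 63.6 and 64.7 CPM in cluster 15 of the treated libraries and 329 CPM in control, against 514, 590, 458 and 478 CPM in cluster 1. Its control ratio was -0.53 (-0.73 to -0.35), and -0.40 (-0.60 to -0.21) among macrophage-nearest cells, and a UMI was seen in 103 of 126 cells, against 847 of 1075. Lyz2 was at 7577 CPM in control cells of cluster 15, against 17189 CPM in cluster 1 (-1.18; -1.22 to -1.14), and the ratio was -1.06 among macrophage-nearest cells. Cd14, a co-receptor for lipopolysaccharide, was at 621 CPM, against 1358 CPM (-1.13). Lyz2 was lower in cluster 15 than in cluster 1 in all 4 libraries, though only 11 of 37 treated cells of cluster 15 were macrophage-nearest. Monocyte genes in control were higher in 3 of 13, with a median of -0.50, though Ccr2 (0.09; -0.14 to 0.31) and the fractalkine receptor Cx3cr1 (0.06; -0.23 to 0.33) had intervals that included 0. The monocyte median was -0.16 with PD-1 antibody, -0.78 with CTLA-4 antibody and 1.49 with the combination. Against control cells of cluster 15 the combination cells had a monocyte median of 1.91. There 7 of 11 intervals lay above 0, against 7.92% of all genes tested. Only 2 of 14 combination cells were macrophage-nearest.

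All values of this paragraph are from the control library. Of 19 genes for lysosomes and lipid handling 1 was higher, with a median of -0.42 and 12 intervals below 0. Plin2, which coats lipid droplets, was at 164 CPM in cluster 15, against 319 CPM in cluster 1 (-0.95; -1.23 to -0.69). MHC class II genes were higher in 3 of 10, with a median of -0.45; Cd74, the class II invariant chain, was at 36150 CPM, against 49743 CPM (-0.46). Of the 14 MHC class I genes 9 were higher, with a median of 0.18, near the share (57.7%) and the median (0.12) of all tested genes, and H2-Q6 had the largest ratio among them (1.33; 1.02 to 1.63), although such class I genes are similar enough to share reads. Among macrophage-nearest cells 12 of 14 class I genes and 0 of 10 class II genes were higher, against 57.6% of all genes tested there.

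In the control library 6 of 23 glycolysis and hypoxia genes were higher, with a median of -0.30. Vegfa, a growth factor for vessels, was at 13.2 CPM in cluster 15, against 31.7 CPM in cluster 1 (-1.19; -2.35 to -0.34), and the glucose transporter Slc2a1 at 23.8 CPM, against 51.0 CPM (-1.06). Genes of respiration were the other way round. Nuclear-encoded respiratory chain genes were higher in 18 of 25 with a median of 0.23 and 14 intervals above 0, and mitochondrially encoded genes in 11 of 13 with a median of 0.30 and 8 intervals above 0, against 57.7% higher and 19.4% with an interval above 0 over all tested genes. Cycs, cytochrome c, was at 351 CPM, against 205 CPM (0.78; 0.58 to 0.97). Immediate early genes were higher in 3 of 15 with a median of -0.24, ribosomal protein genes in 12 of 22 with a median of 0.02, and interferon-induced genes in 22 of 31 with a median of 0.10. The ribosomal and interferon shares in control lie on either side of the 57.7% of all tested genes. Both medians are below the 0.12 of all tested genes and changed sign in some settings. The treated libraries differed. With PD-1 antibody, CTLA-4 antibody and the combination the ribosomal median was 0.26, 0.49 and 0.59. The interferon median was -0.28, -0.70 and -0.43, and the mitochondrially encoded median 0.48, -0.29 and 0.10. Only 11 of the 37 treated cells of cluster 15 were macrophage-nearest.

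Inflammatory genes of the control library were higher in 6 of 14, with a median of -0.23, and chemokine genes in 6 of 18, with a median of -0.19. Macrophage transcription factors were higher there in 5 of 15, with a median of -0.21. With PD-1 antibody, CTLA-4 antibody and the combination the transcription factor median was 0.29, -0.83 and 0.10. Il1b, an inflammatory cytokine, was at 249 CPM in cluster 15, against 570 CPM in cluster 1 (-1.19; -1.42 to -0.98). Ccl8, a monocyte chemokine, was at 8386, 8252 and 9879 CPM in cluster 15 of the treated libraries and 2161 CPM in control, against 22129.6, 19296, 14225 and 4845 CPM in cluster 1. It was lower in cluster 15 in every library, and higher in each treated library than in control in both clusters. Of the treated cells of cluster 15, only 11 of 37 were macrophage-nearest. Arg1, arginase, was at 153, 63.6 and 401 CPM in the treated libraries and 135 CPM in control in cluster 15, against 932, 506, 594 and 228 CPM in cluster 1. Cxcl13, a B cell chemokine, had a ratio of 2.06, but 423 of its 834 UMIs lay in 1 cell, and a UMI was seen in 16 of 126 cells. Genes of the arginine and checkpoint list were higher in 3 of 9 in control, with a median of -0.10.

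A few of these values differed between all control cells and the macrophage-nearest ones. Over all control cells of cluster 15 Xcr1 had a log2 ratio of 5.01 over cluster 1. No Xcr1 UMI was seen in the macrophage-nearest cells, so their ratio of 0.07 rests on the 0.5 added to each count. Id2, a transcription factor of dendritic and other cells, had a ratio of 0.51 over all control cells and then -0.15 among the macrophage-nearest ones. H2-Oa, a class II editing subunit, had 0.69 and then -0.61. For the cell cycle lists the median was 3.09 among macrophage-nearest cells, next to 3.11 over all. Of the 1098 genes that were 2-fold higher, 981 remained so among macrophage-nearest cells, as did 403 of the 502 that were lower.

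Outside the cell cycle set, the 10 genes with the highest ratios mostly rested on single cells. In 9 of the 10, over 50% of the UMIs of cluster 15 lay in 1 cell. Without each gene's highest cell the ratios of the 10 ran from -0.25 to 3.93, so some stayed high. An example is Htra1, a secreted protease, with 39 of 41 UMIs in 1 cell; its log2 ratio was 4.42, and 0.62 without that cell. Mut, a mitochondrial mutase, had 49 of 53 UMIs in 1 cell, and its ratio changed to -0.25. In the control cells of cluster 15 there were 231 genes with 20 or more UMIs in 1 cell and at most 5 in any other, spread over 97 cells. Ranked without each gene's highest cell, a choice made after seeing this, Nupr1, a stress-induced chromatin protein, was at 353, 216 and 336 CPM in cluster 15 of the treated libraries and 384 CPM in control, against 162, 113, 186 and 134 CPM in cluster 1. Its control log2 ratio was 1.52 (1.31 to 1.72), with a UMI in 74 of 126 cells, against 411 of 1075. Ddit3, a transcription factor of the stress response, was at 153, 63.6 and 64.7 CPM in the treated libraries and 78.1 CPM in control in cluster 15, against 33.8, 25.2, 55.9 and 26.3 CPM in cluster 1. Both genes were higher in cluster 15 in all 4 libraries, though Ddit3 had only 10, 5 and 5 UMIs in the treated ones. Among the lowest genes, besides Apoe, were Trf, the iron carrier transferrin (-1.68; -2.02 to -1.37), and Tcn2, a cobalamin carrier (-1.78; -2.42 to -1.25).

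The change that goes with cycling was compared with that in T cells, where cluster 9 was set against the other T cell clusters of the control library. Of 7174 genes tested in both, 852 (11.9%) were 2-fold higher in cluster 15 over cluster 1 and 653 (9.1%) in cluster 9 over T cells, and 354 were in both, which is 41.5% of the cluster 15 genes and 54.2% of the cluster 9 genes. Directly compared, cluster 15 was a little below cluster 9 for cell cycle genes, with 38 of 167 higher, against 46.4% of all genes, and a median log2 ratio of -0.47, against -0.08 over all genes.

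Treated cells of cluster 15 were also set against control cells of cluster 15, gene by gene. Over the cell cycle lists the median log2 ratio to control was -0.13 for PD-1 antibody (median interval -1.66 to 1.06), -0.15 for CTLA-4 antibody (-1.61 to 0.86) and 0.02 for the combination (-1.21 to 1.10), over 143, 144 and 144 genes. Over all tested genes it was -0.02, -0.08 and -0.06. Single lists lay on both sides of these medians. With PD-1 antibody licensing was at 0.49, against -0.96 for condensin, cohesin and topoisomerase and -0.75 for the spindle. With the combination the checkpoint and anaphase list was at 0.61, with 6 of 11 intervals above 0, against 7.92% of all genes tested. For most genes the interval included 0, which does not show that treated and control levels were alike.

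The C1q and resident list was set against control in the same way. Its median log2 ratio was -0.17 with PD-1 antibody (7 of 16 higher), -1.08 with CTLA-4 antibody (3 of 15 higher) and -2.12 with the combination (4 of 15 higher). Over all tested genes 49.2, 46.2 and 46.5% were higher. The list summed to 24591, 14597 and 13422 CPM in cluster 15 of the PD-1 antibody, CTLA-4 antibody and combination libraries, against 19095 CPM in control. The sum was thus above control with PD-1 antibody and below it in the other two. In cluster 1 it was 43199, 41492 and 34850 CPM, against 25819 CPM in control. Among macrophage-nearest cells of cluster 15 the list summed to 44887 CPM in the 11 treated cells, against 21270 CPM in the 109 control cells. Pooled over the treatments, the list sum was thus larger in macrophage-nearest cells than in control ones, as in cluster 1 of each treated library. Gene by gene the cluster 1 list did not rise in each. Its median log2 ratio to control was 0.18 with PD-1 antibody, -0.15 with CTLA-4 antibody and 0.51 with the combination. Over all genes tested in cluster 1 it was -0.05, -0.07 and -0.08. The sums of cluster 15 rest on few treated cells.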

How the data were processed

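Per the labels' protocols, transcripts were counted from 3′ ends (10x Chromium, version 1 kit) of sorted live CD45+ cells. Raw UMI counts, as the authors deposited them, came per gene and barcode, with cluster numbers for the cells they kept. The submitters' processing notes name Cell Ranger, Seurat and mm10, with no versions; the sources used here do not give strand handling. The 4 libraries held 11176246 to 13374294 UMIs in 3336 to 3945 listed cells.

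Counts were summed per cluster and library and divided by the total (CPM). Log2 ratios add 0.5 to each count and carry exact conditional binomial 95% intervals. Shares carry exact Clopper-Pearson intervals. Genes with under 20 UMIs over both sides were not tested. Phases were scored with scanpy 1.11.5 in cells thinned to 2000 UMIs, leaving out 15 of 163 cells of cluster 15. Resemblance calls left out 1895 cell cycle genes, and the 18-cluster call 1982 genes. The scripts ran on numpy 2.4.6, scipy 1.17.1 and pandas 2.3.3 and were tested on simulated data. Scrublet called 2 of 14491 cells doublets, so its threshold did not work here, and the highest 3% of scores per library were left out as an alternative. No barcode was shared between cluster 15 cells of different libraries. Clusters 9 and 11 were named here from markers, and the authors' names may be others.

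Named genes were the 4 markers, up to 3 members per cell cycle list and 2 per macrophage list with the largest ratios, the 10 highest and 10 lowest other genes with at least 50 counts and 50 CPM, and 5 leading genes per macrophage cluster. Genes named for their role (D cyclins, C1qa, Csf1r, Lyz2 and the like), genes of the lineage check and genes set between phases fall outside that rule and were chosen after values were seen. Values of 2 of these genes are not reported here. The members, gene lists and comparisons were chosen with earlier results of these data known. Alternatives added after the data were seen are the 18-cluster call, macrophage-nearest cells alone, clusters 1 and 15 as denominator, barcodes outside the authors' list, and leaving out each gene's highest cell.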

Additional observations from a re-analysis of the deposited data

Results flagged for a closer look

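Barcodes outside the authors' list were looked at because that list mostly leaves out barcodes with over 3000 genes, which 124 of the 127 unlisted barcodes had, and cells of cluster 15 are rich in genes. Of the unlisted barcodes, 10 were nearest a macrophage cluster, and 5 of these had 10 or more phase-list UMIs of 2000. All 5 came from the control library, were nearest cluster 1, had a median of 3206 genes and showed no UMI of the T cell markers. Among listed cells, 33 of cluster 15 (20.2%) had 2500 or more genes, against 1.85% in cluster 1 and 12.0% in cluster 9, and the most in a cluster 15 cell was 2994. Whether the unlisted barcodes are single cells was not tested. With these 5 added, the log2 ratios of the cluster 15 share to control were -3.58, -3.11 and -3.51 for PD-1 antibody, CTLA-4 antibody and the combination.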

How the results depend on the processing

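No paired analysis was possible because each treatment had 1 library. For the same reason nothing could be tested, and cluster 15 held 9 to 14 cells in a treated library, which limits every treated value. The log2 ratio of the cluster 15 share stayed below 0 in all settings. Counting cells with 5 or more phase-list UMIs regardless of cluster it was -1.01, -1.14 and -1.37 for PD-1 antibody, CTLA-4 antibody and the combination, and with 20 or more it was -2.60 for the combination. With clusters 1 and 15 as denominator the ratios were -1.88, -1.69 and -1.01, and with macrophage-nearest cells alone -5.08 for CTLA-4 antibody and -6.07 for the combination. Cycling cells of the control library were 26.5% at 5 or more UMIs and 5.51% at 20 or more. With phase taken from the larger of the list sums, 53.9% of control cells were in G2/M and 46.1% in S phase, and at 1000 UMIs 20.6% were in S phase. Cluster 1 was nearest for 99.2% of control cells with no gene left out, 89.7% with cluster 0 offered and 84.1% with all 18 clusters offered, and for 32.4% and 27.0% of treated cells in the last 2 settings. At a minimum of 100 counts the cell cycle median was 2.35, and 391 genes were 2-fold higher and 144 lower. Without each gene's highest cell 788 genes were 2-fold lower, 5 macrophage lists in place of 3 had a median above that of all genes, and the combination to control cell cycle median was -0.38. The interferon median was -0.0187 in thinned cells, and the ribosomal median -0.0199 with size factors, -0.0160 in thinned cells, -0.00643 without the highest cell and -0.0304 among macrophage-nearest cells. Among macrophage-nearest cells Id2 was at -0.15, H2-Oa at -0.61, Plet1 at -0.58, Wfdc17 at 0.0679 and Rsad2 at -0.73. Without the highest cell Mut was at -0.25, Cd1d1 at -1.40, and Rsad2 and Ifit2 each at -0.61. Wfdc17 was at 0.10 with totals without cell cycle genes, and in thinned cells Ifit1 was at 0.19, Ifit3 at -0.14 and Ifit2 at -0.18. Size factors moved the median of all genes by -0.04 and totals without cell cycle genes by 0.10. Where not named, the cause was not tested.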

Other observations

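A few more genes high in cluster 15 over cluster 1 outside the cell cycle set, ranked without each gene's highest cell, were picked after their values were seen. Gtpbp2, which rescues stalled ribosomes, was at 199, 38.1 and 64.7 CPM in cluster 15 of the PD-1 antibody, CTLA-4 antibody and combination libraries and 119 CPM in control, against 32.98, 37.5, 18.2 and 35.4 CPM in cluster 1. Its control log2 ratio was 1.76 (1.37 to 2.13), and 1.38 without the highest cell, while the clusters hardly differed in the CTLA-4 antibody library. Raet1e, a stress-induced ligand of the receptor NKG2D, had a control log2 ratio of 1.49 (1.13 to 1.84) with a UMI in 50 of 126 cells, against 151 of 1075. Nfyb, a subunit of the factor that binds CCAAT boxes, was at 55.6 CPM in control cells of cluster 15, against 17.9 CPM in cluster 1 (1.64; 1.07 to 2.18).

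Cells of cluster 11 that cycled by the rule of 10 UMIs were few: 2 of 65 with PD-1 antibody, 3 of 62 with CTLA-4 antibody and 2 of 76 with the combination, against 2 of 70 in control.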
